A study of Mus musculus with 4 samples.

Results

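The lysosomal proteases other than cathepsin K were examined in cultures of NFATc1-deficient and wild-type mouse osteoclasts. NFATc1 switches on the genes of osteoclast formation after RANKL binds its receptor RANK. The members were the genes of cathepsins A, B, C, D, H, L, S and Z and of legumain (Ctsa, Ctsb, Ctsc, Ctsd, Ctsh, Ctsl, Ctss, Ctsz and Lgmn), taken by gene symbol and not by their values. They are 9 of the 12393 genes named on the array, and they were measured by 14 of its 22690 probe sets. A probe set is a group of short probes read as 1 signal, and some probe sets can match more than 1 transcript. Each of 7 members had 1 probe set, Ctsz had 3 and Ctsb had 4, and all 14 passed the filter on low signal.

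The 2 genotypes, on a C57BL/6 background, had 2 arrays each. NFATc1-deficient cultures came from NFATc1 fl/fl MxCre+ mice, whose floxed alleles were excised after polyIC induced the recombinase, and wild-type cultures from NFATc1 fl/fl MxCre- mice, so both genotypes carried the floxed alleles. The Mx promoter answers to interferon and is active in many cell types, so the recombinase is not specific to osteoclasts. Precursors negative for CD11b, CD3e and B220 and positive for c-Kit and c-Fms were sorted from bone marrow and kept for 3 days in M-CSF and RANKL. Each array held RNA pooled from 3 mice (replicate 1) or 4 mice (replicate 2). The sources used here gave neither the age of the mice nor whether wild-type mice received polyIC.

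Cathepsins are proteases of endosomes and lysosomes that are made as inactive proenzymes, carried to the lysosome mostly by mannose 6-phosphate tags, and activated by acid pH. Most are cysteine proteases of the papain family, cathepsin D is an aspartic protease and cathepsin A a serine carboxypeptidase. Legumain is an asparaginyl endopeptidase that trims several cathepsins to their mature form. In osteoclasts cathepsin K is the main enzyme that degrades bone collagen, and the other cathepsins serve general lysosomal digestion and antigen processing in osteoclasts and macrophages alike.

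Among the 9 genes, Ctsb and Lgmn fell in NFATc1-deficient cultures, Ctsh rose, and Ctsa, Ctsc, Ctsd, Ctsl, Ctss and Ctsz did not pass at their brightest probe set. Mean signals stood at 63.4% of wild-type for Ctsb, 65.4% for Lgmn and 178% for Ctsh. The call was an adjusted p under 0.05 in limma, which was fitted to log2(signal + 23.3) over 13577 probe sets with Benjamini-Hochberg adjustment, and adjusted p values below come from that fit unless another setting is named. The 2 lower genes of 9 stand beside a background of 11.9% of all 7798 tested genes, and the 1 higher gene beside 12.9%. Over these 9 genes the median log2 change was -0.23, against 0.031 over all tested genes. Without NFATc1-deficient replicate 1 limma called 0 of the 9 in either direction, with 1 lower and 1 higher gene at an unadjusted p under 0.05.

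The plot of signals by array shows all 14 probe sets. The genotypes did not overlap in 13 of them, against 63.2% of all tested probe sets.

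**Figure D1:**
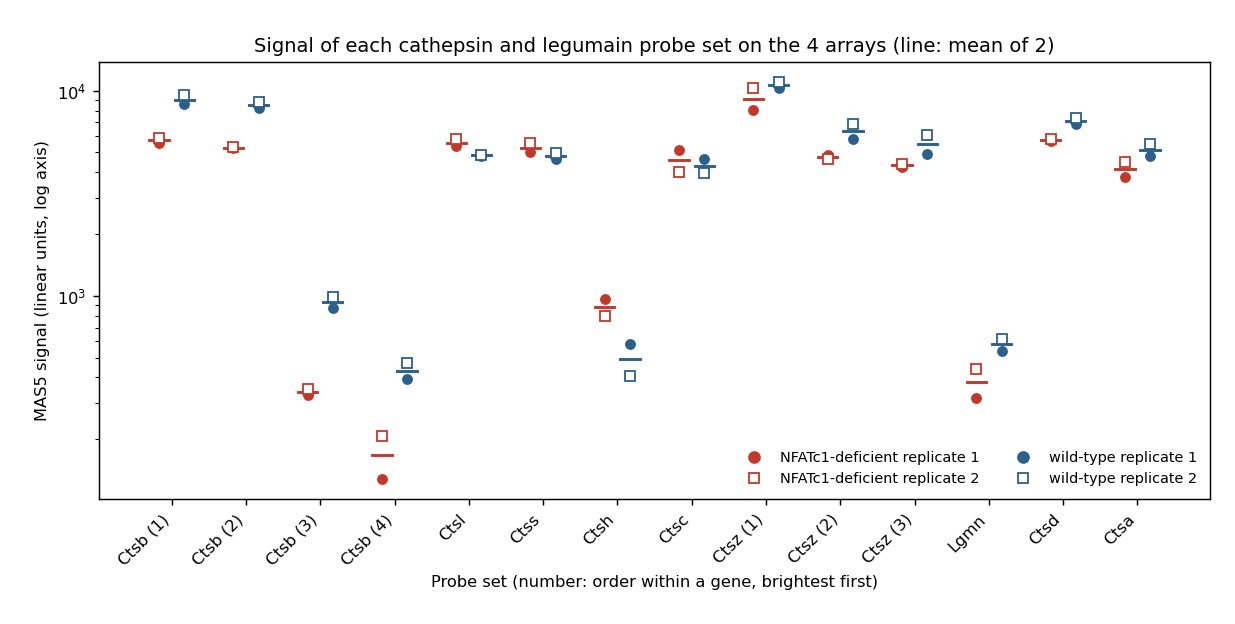
MAS5 signal (log axis) of each probe set on the 2 NFATc1-deficient arrays (red, left) and the 2 wild-type arrays (blue, right), with a line at each mean; probe sets of a gene are numbered from the brightest. In 13 of 14 probe sets the genotypes do not overlap, and Ctsc is the exception.

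The arrays had median signals of 114 and 125 in NFATc1-deficient cultures and of 130 and 112 in wild-type cultures. Nfatc1 itself had signals of 3018 and 4098 in NFATc1-deficient cultures, against 5434 and 6147 in wild-type cultures, a log2 change of -0.71 (SE 0.15, adjusted p 0.0104, but 0.0886 without NFATc1-deficient replicate 1 and 0.0613 without the intensity trend), so 61.5% of the wild-type mean remained at this probe set. The other Nfatc1 probe set stood at 68.5% of wild-type (-0.55, adjusted p = 0.0129), and its call was lost in 3 of 13 alternatives. The position of either probe set relative to the excised exons was not analysed here. All 8 tested osteoclast markers were lower, and their summed signal was 20704.5 and 27933 in NFATc1-deficient cultures, against 49261 and 55879 in wild-type cultures. Granulocyte markers summed to 18074 and 8858 in NFATc1-deficient cultures, against 7263 and 7371 in wild-type cultures, with 4 of 12 tested higher. Macrophage and monocyte markers summed to 43950.0 and 43031 in NFATc1-deficient cultures, against 48241 and 53691 in wild-type cultures, with 2 of 11 tested lower and 1 higher. Dendritic cell markers summed to 3816 and 3644 in NFATc1-deficient cultures, against 2603 and 2289 in wild-type cultures, with 2 of 4 tested higher, H2-Aa and H2-Ab1. Over all tested genes 11.9% were lower and 12.9% higher. No marker of any list was at a signal of 0. Each of these sums was separated between the genotypes, although the granulocyte sum stood out mainly in NFATc1-deficient replicate 1. The part of these marker levels in the results below was not tested. In bulk RNA fewer cells of a type and less RNA per cell cannot be told apart. Xist was high and Eif2s3y low in replicate 1 of both genotypes, with the reverse in replicate 2, so the sex of the pools went with the replicate number. For this reason changes are also given between the arrays of the same replicate number.

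Promoter sequences are shown because lysosomal genes are known to share the E-box CACGTG, which is read by basic helix-loop-helix factors such as TFEB and MITF, and because the MiT factors themselves were measured here. RefSeq's promoter table for GRCm38.p6 matched 7 of the 9 members, with 9 annotated starts, and Ctsb and Ctsh had no entry. In the window from 250 bases before to 50 bases after the start, CACGTG lay in 4 of the 9 promoters, of Ctsd, Ctsa, Lgmn and Ctsl, against 7.15% of all 32851 promoters in the table. The extended form TCACGTG, searched on both strands and always overlapping CACGTG, lay in 3 of the 9, all but Ctsl, against 3.77% of all promoters. An AP-1 site (TGANTCA, both strands) lay in 0 of the 9, against 7.81%, and the NFAT core GGAAA (both strands) in 6 of the 9, against 61.3%. The matches are letters in a window and not measured binding. The 250 bases before the start of the 4 promoters with the E-box follow, 5′ to 3′ on the gene's strand, with CACGTG in capitals.
Ctsd (chr7:142387828-142388077, minus strand): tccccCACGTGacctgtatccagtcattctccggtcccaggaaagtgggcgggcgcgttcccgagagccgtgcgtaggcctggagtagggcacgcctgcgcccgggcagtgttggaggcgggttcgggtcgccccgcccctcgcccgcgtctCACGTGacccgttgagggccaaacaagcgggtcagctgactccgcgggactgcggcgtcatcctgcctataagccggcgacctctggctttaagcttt
Ctsa, downstream start (chr2:164833523-164833772, plus strand): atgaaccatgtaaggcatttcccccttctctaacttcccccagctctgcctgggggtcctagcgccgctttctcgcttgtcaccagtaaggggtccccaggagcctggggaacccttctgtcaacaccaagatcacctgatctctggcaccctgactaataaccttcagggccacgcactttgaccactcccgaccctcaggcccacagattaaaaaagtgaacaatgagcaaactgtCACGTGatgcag
Lgmn, downstream start (chr12:102439093-102439342, minus strand): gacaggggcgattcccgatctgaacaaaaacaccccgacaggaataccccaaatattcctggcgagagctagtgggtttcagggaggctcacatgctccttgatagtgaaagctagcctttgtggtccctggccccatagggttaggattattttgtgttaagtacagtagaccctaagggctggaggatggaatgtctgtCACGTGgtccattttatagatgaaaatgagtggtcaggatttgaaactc
Ctsl (chr13:64370521-64370770, minus strand): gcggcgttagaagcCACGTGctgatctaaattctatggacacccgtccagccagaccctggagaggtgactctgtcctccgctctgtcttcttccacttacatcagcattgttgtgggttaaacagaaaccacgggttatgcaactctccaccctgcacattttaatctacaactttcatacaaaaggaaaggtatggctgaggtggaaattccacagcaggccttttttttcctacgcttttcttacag
In Ctsd the matches begin 245 and 98 bases before the start, in Ctsa 12 bases before it with another inside the transcript, in Lgmn 49 bases before it and in Ctsl 236 bases before it. The other start of Lgmn, the other start of Ctsa, and the promoters of Ctsz, Ctss and Ctsc had no CACGTG in the window. Of these 4 genes Lgmn fell, Ctsd and Ctsa had values below 0 and did not pass, and Ctsl had a value above 0 and did not pass.

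Of the endopeptidases of the papain family Ctsb passed, and Ctsl and Ctss did not. Ctsb, which encodes cathepsin B, an enzyme that cuts inside proteins and also removes dipeptides from their ends, was lower at all 4 of its probe sets. The brightest had signals of 5572 and 5873 in NFATc1-deficient cultures, against 8585 and 9475 in wild-type cultures. Its means were 5722 ± 213 in NFATc1-deficient and 9030.1 ± 629 in wild-type cultures (SD, n = 2 each), a log2 change of -0.65 (SE 0.11, adjusted p = 0.00345). Both deficient arrays lay below both wild-type arrays, and the gap between the nearest arrays was wider than the spread within either genotype. The second bright probe set gave the like picture, with 5256 and 5302 in NFATc1-deficient cultures, against 8187 and 8768 in wild-type cultures (-0.68, adjusted p = 0.00238).

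The dimmer Ctsb probe sets gave larger falls than the bright ones. One had 328 and 351 in NFATc1-deficient cultures, against 870.0 and 989.7 in wild-type cultures, which is a log2 change of -1.39 (adjusted p = 0.000411, SE 0.14). The dimmest had 127 and 208 in NFATc1-deficient cultures, against 395 and 469 in wild-type cultures, a log2 change of -1.28 (adjusted p = 0.00498, SE 0.23). By the ratio of mean signals, which uses no pseudocount, the 4 probe sets stood at 63.4%, 62.3%, 36.5% and 38.8% of wild-type. The 95% interval of the steepest, -1.70 to -1.08, lies apart from that of the brightest, -0.90 to -0.41, whereas that of the dimmest, -1.80 to -0.76, overlaps it. The difference between probe sets was not tested, and an exact permutation test of 2 against 2 arrays cannot give a p below 0.333. The annotation assigns all 4 to the same accession, and which transcript ends they read was not analysed here. With median scaling the adjusted p of the brightest was 0.0592, and without NFATc1-deficient replicate 1 it was 0.0578, whereas the remaining 3 probe sets stayed under 0.05 in both.

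Ctsl, which encodes the endopeptidase cathepsin L, had 5377 and 5789 in NFATc1-deficient cultures, against 4807 and 4868 in wild-type cultures. Both deficient arrays were above both wild-type arrays, by a log2 value of 0.20 that did not pass (95% interval -0.03 to 0.44, adjusted p = 0.185). With quantile normalization the value was 0.26 and passed (adjusted p = 0.0460). Ctss encodes cathepsin S, which stays active near neutral pH and cuts the invariant chain of MHC class II. It had 4997 and 5566 in NFATc1-deficient cultures, against 4660 and 4952 in wild-type cultures, again without overlap. The log2 value was 0.13 and did not pass (95% interval -0.11 to 0.38, adjusted p = 0.413).

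Ctss lies next to Ctsk on chromosome 3 in the RefSeq annotation, with no protein-coding gene between them. Cathepsin K had 5599 and 8290 in NFATc1-deficient cultures, against 12137 and 14170 in wild-type cultures, a log2 change of -0.94 (95% interval -1.35 to -0.54, adjusted p = 0.00641, but -0.66 and 0.0734 without NFATc1-deficient replicate 1). The interval of Ctsk lies wholly below that of its neighbour Ctss, and the difference between the 2 genes was not tested. Ctsc, on chromosome 7, neighbours Rab38, a gene picked out after its values were seen. Rab38 had 109.5 and 427 in NFATc1-deficient cultures, against 2901 and 2756 in wild-type cultures. Values of the other genes that neighbour the members are not given here, so no pattern among neighbours can be read from these cases.

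Among the exopeptidases Ctsh rose. It encodes cathepsin H, mainly an aminopeptidase, and had signals of 962 and 793 in NFATc1-deficient cultures, against 584 and 405 in wild-type cultures. The lowest deficient array stood above the highest wild-type array. Means were 877.5 ± 119 in NFATc1-deficient and 494 ± 126 in wild-type cultures (SD, n = 2 each), a log2 change of 0.81 (SE 0.18, adjusted p = 0.0136). Within replicate 1 the change was 0.70, and within replicate 2 it was 0.93. It was positive under every alternative run, and it missed the threshold without the intensity trend (adjusted p = 0.0591) and without NFATc1-deficient replicate 1 (0.0597).

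Ctsc encodes cathepsin C, a dipeptidyl peptidase that activates the granule serine proteases of neutrophils and mast cells. It had 5112 and 4026 in NFATc1-deficient cultures, against 4645 and 3974 in wild-type cultures. It was the only member whose genotypes overlapped, and its log2 value of 0.08 did not pass (95% interval -0.24 to 0.40, adjusted p = 0.733). Replicate 1 was above replicate 2 in both genotypes for Ctsc and Ctsh, whereas replicate 2 was above replicate 1 in both genotypes for 11 of the 14 member probe sets. Of 8 listed serine proteases that cathepsin C activates only 2, Prtn3 and Elane, passed the filter on low signal. Both also had higher signal in replicate 1 of each genotype. They belong to the granulocyte marker list above as well, and the part of those cells was not tested. Prtn3 had 1001 and 377 in NFATc1-deficient cultures, against 649 and 337 in wild-type cultures. Elane had 557 and 251 in NFATc1-deficient cultures, against 351 and 251.5 in wild-type cultures, and neither gene passed (adjusted p of 0.556 and 0.525).

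Ctsz encodes cathepsin Z, a carboxypeptidase also called cathepsin X, and its 3 probe sets did not share a call. The brightest had 8043 and 10254 in NFATc1-deficient cultures, against 10347 and 10992 in wild-type cultures, and did not pass (-0.23, 95% interval -0.54 to 0.07, adjusted p = 0.253). The next had 4878 and 4632 in NFATc1-deficient cultures, against 5814 and 6915 in wild-type cultures, a log2 change of -0.41 that passed (adjusted p = 0.0333). The last had 4258 and 4398 in NFATc1-deficient cultures, against 4916 and 6097 in wild-type cultures, and did not pass (-0.34, adjusted p = 0.0823). This last probe set did pass with replicate number, which pool sex follows, as a replicate block (0.0288), with quantile normalization (0.049) and without wild-type replicate 1 (0.00366). All 3 ran in the same direction without overlap. The probe set that passed in the reported fit carries the array maker's mark for probes that can match other transcripts, and its call was lost in 6 of 13 alternatives, among them every removal of an array other than wild-type replicate 1.

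The plot of changes sets each estimate beside its interval.

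**Figure D2:**
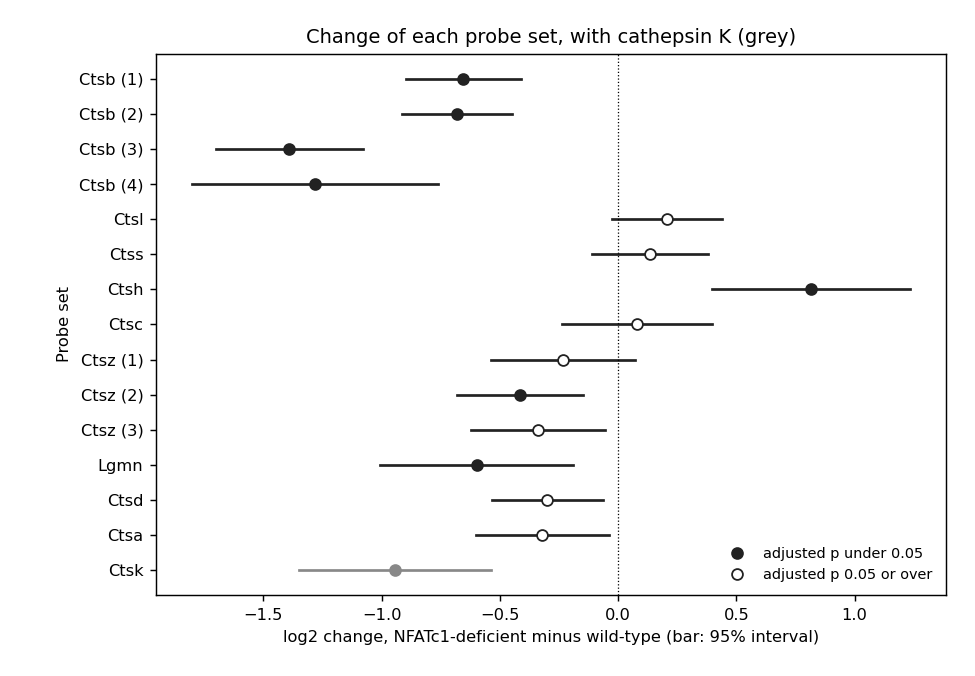
Log2 change (NFATc1-deficient minus wild-type) of the 14 probe sets and of cathepsin K in grey, with 95% intervals from limma; filled points passed an adjusted p of 0.05. The 4 Ctsb probe sets run from -1.39 to -0.65, and Ctsh at 0.81 is the only filled point above 0.

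Of the proteases that act beside the papain family, legumain fell. Lgmn had 317 and 441 in NFATc1-deficient cultures, against 540.0 and 619.0 in wild-type cultures. Means were 379 ± 87.9 in NFATc1-deficient and 579.5 ± 55.9 in wild-type cultures (SD, n = 2 each), a log2 change of -0.60 (SE 0.18, adjusted p = 0.0409). Both deficient arrays were below both wild-type arrays, with the gap between the nearest arrays about as wide as the spread inside a genotype. This call is the least firm of the 3, since it was lost without a filter (adjusted p = 0.0915), without the intensity trend (0.0943), without wild-type replicate 2 (0.101) and without NFATc1-deficient replicate 1 (-0.37, adjusted p = 0.220).

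Ctsd, which encodes the aspartic protease cathepsin D, had 5715 and 5829 in NFATc1-deficient cultures, against 6847 and 7388 in wild-type cultures. The genotypes were well apart, but the log2 value of -0.30 did not pass (95% interval -0.53 to -0.07, adjusted p = 0.0661). Ctsa encodes cathepsin A, which holds beta-galactosidase and neuraminidase 1 in a stable complex. It had 3788 and 4469 in NFATc1-deficient cultures, against 4800 and 5509 in wild-type cultures, and its log2 value of -0.32 did not pass (95% interval -0.60 to -0.04, adjusted p = 0.0955). Without wild-type replicate 1 both passed, at -0.35 for Ctsd (adjusted p = 0.0237) and -0.42 for Ctsa (0.0187), and Ctsd also passed with quantile normalization (0.0386). With the replicate block both passed as well (adjusted p of 0.0278 for Ctsa and 0.0363 for Ctsd).

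Both partners of cathepsin A were lower by more than Ctsa itself in the same fit. Glb1, which encodes beta-galactosidase, had 565 and 680 in NFATc1-deficient cultures, against 2603 and 2580 in wild-type cultures, a log2 change of -2.02 (95% interval -2.30 to -1.74). Neu1, which encodes neuraminidase 1, had 273.5 and 327 in NFATc1-deficient cultures, against 588 and 589 in wild-type cultures, a log2 change of -0.92 (95% interval -1.27 to -0.58). The interval of Glb1 lies apart from that of Ctsa, while those of Neu1 and Ctsa overlap narrowly, and the differences between genes were not tested.

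Changes between the arrays of the same replicate number had the same sign in both replicates for each of the 14 probe sets. For the 13 probe sets without overlap the shared sign follows from that separation, so it is no further support. Those of Ctsb at its brightest probe set were -0.62 and -0.69, those of Lgmn -0.73 and -0.47, those of Ctsd -0.26 and -0.34, and those of Ctsa -0.34 and -0.30. Ctsz was less even at its brightest probe set, with -0.36 in replicate 1 and -0.10 in replicate 2.

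**Figure D3:**
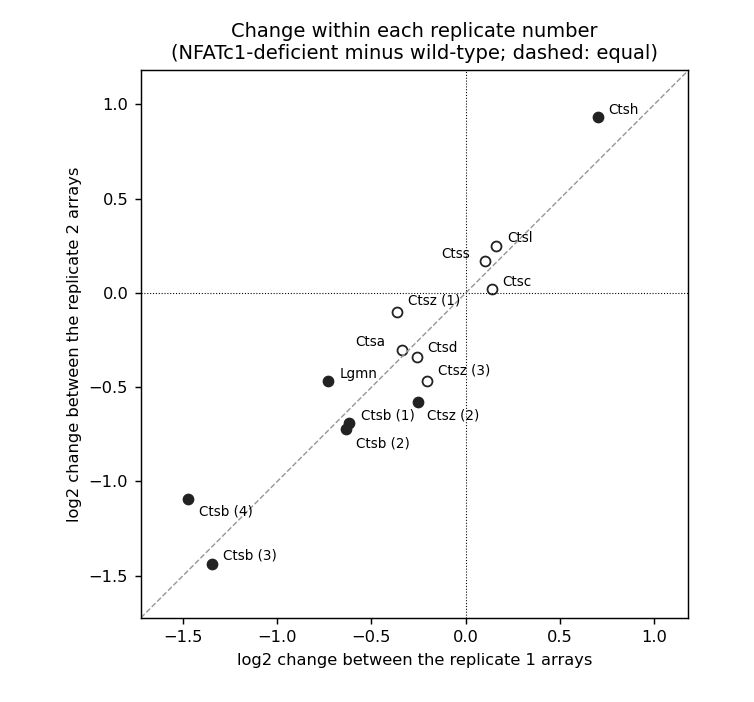
Log2 change (NFATc1-deficient minus wild-type) within replicate 1 (horizontal) and within replicate 2 (vertical) for each probe set, with filled points for those that passed. All points lie in the lower left or upper right quadrant, from a Ctsb probe set at -1.35 and -1.44 to Ctsh at 0.70 and 0.93. For all but Ctsc this follows from the lack of overlap between the genotypes.

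The genes whose profile over the 4 arrays was most like that of the members were named by the smallest root mean square difference of centred log2 values. For the mean profile of Ctsb and Lgmn they were Gla (0.017), Pip5k1c (0.018) and Chmp1a (0.020), of which Gla encodes the lysosomal alpha-galactosidase. For Ctsh they were Cdc45 (0.011), Thbd (0.019) and Caap1 (0.036). With 4 arrays this likeness is a description of these libraries alone.

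The remaining genes of the pathway were taken from lists and are given by role. Beside each list stand 11.9% lower and 12.9% higher among all tested genes. Of the other cathepsins on the array 10 of 14 did not pass the filter on low signal, and of the 4 tested Ctsk fell, Ctse rose, and Ctsf and Ctsg did not pass. Without NFATc1-deficient replicate 1 none of the 4 fell, and without wild-type replicate 1 there were 2 that rose. Ctse, which encodes the aspartic protease cathepsin E, had 1375 and 1416 in NFATc1-deficient cultures, against 925 and 735 in wild-type cultures (0.74, adjusted p = 0.00539), while its other probe set did not pass (0.09). Among the inhibitors of cysteine cathepsins, Cst3 (cystatin C) had a log2 value of 0.0017 and Cstb (cystatin B) of -0.10, and neither passed. Cst7 (cystatin F) fell to 135 and 105 in NFATc1-deficient cultures, against 241 and 205 in wild-type cultures (-0.78, adjusted p = 0.0305). That call was lost when either NFATc1-deficient array or wild-type replicate 1 was left out. It was also absent without a filter and with the filter at the 60th percentile.

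In the list of mannose 6-phosphate tagging and sorting, 2 of 14 tested genes fell and 2 rose, with a median of 0.029. These counts lie near the shares over all tested genes, 11.9% lower and 12.9% higher. Gnptab, which encodes the enzyme that starts the mannose 6-phosphate tag by which most cathepsins are sorted, had 1238 and 1600 in NFATc1-deficient cultures, against 4298 and 4332 in wild-type cultures. Its log2 change was -1.60 (SE 0.13), and its other 2 probe sets gave -1.79 and -1.90. The adaptor gene Gga1 fell (-0.78), Scarb2, a lysosomal receptor for beta-glucocerebrosidase, rose (0.78), and the adaptor subunit gene Ap1g1 rose at its brightest probe set (0.56, adjusted p = 0.0374). The other tested Ap1g1 probe set had a log2 value of the opposite sign and did not pass (-0.18, adjusted p = 0.356). Without NFATc1-deficient replicate 1 or wild-type replicate 2 only 1 gene of the list fell, and without replicate 2 of either genotype only 1 rose.

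Of 25 tested lysosomal hydrolases outside the cathepsins 12 fell and 0 rose (median -0.45), against 11.9% lower and 12.9% higher over all tested genes. At an unadjusted p under 0.05 in limma 15 hydrolases were lower and 1 higher. The shares over all tested genes are for adjusted p, and no share at the unadjusted threshold is given here. The largest falls were in Glb1, in Smpd1 (sphingomyelinase, -1.99), Hexa (hexosaminidase A, -1.23) and Naglu (-1.09). Of 13 lysosomal membrane proteins and activators 7 fell and 1, Lamp1, rose (0.42), with a median of -0.42, but without NFATc1-deficient replicate 1 only 2 fell and 0 rose. The largest falls there were in Tmem192 (-1.54), Ctns (cystine transporter, -0.73), Mcoln1 (a lysosomal calcium channel, -0.71) and Cd68 (-0.68). Cd68 is also in the macrophage and monocyte marker list, and the part of those cells was not tested. The median of the 9 cathepsin and legumain genes, -0.23, lies between those lists and that of all genes, and that order was not tested.

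The shares over all tested genes were 11.9% lower and 12.9% higher. Of 7 tested genes of MHC class II processing, the pathway that Ctss and Lgmn serve, 3 rose and 0 fell (median 0.36), the same counts as at an unadjusted p under 0.05 in limma. They were H2-Aa (0.79), H2-Ab1 (0.55) and H2-Eb1 (0.42), while the invariant chain gene Cd74 had 2642 and 2348 in NFATc1-deficient cultures, against 2295 and 1769 in wild-type cultures, and did not pass (0.30, adjusted p = 0.156). The brightest H2-Aa probe set carries the same array maker's mark as the Ctsz probe set that passed. The other H2-Aa probe set gave 0.83 (adjusted p = 0.00208). H2-Aa and H2-Ab1 are also the 2 dendritic cell markers that rose, and the part of those cells was not tested. Without NFATc1-deficient replicate 1 only 1 class II gene rose. Neither of the 2 tested serine proteases passed, although both rose without NFATc1-deficient replicate 2, nor did the only tested gene of the endosomal Toll-like receptor list, Unc93b1 (-0.27, adjusted p = 0.299). Of the MiT transcription factors, which read the E-box shown above, Tfec fell (-0.52, adjusted p = 0.0195), though no MiT gene passed without NFATc1-deficient replicate 1, and 2 fell without replicate 2 of either genotype. Mitf did not pass at its brightest probe set (-0.37, adjusted p = 0.0683) and fell at the other (-1.15). Tfeb had 186 and 285 in NFATc1-deficient cultures, against 458 and 237 in wild-type cultures. Its genotypes overlapped and it did not pass (-0.48, adjusted p = 0.292). Of the 4 listed MiT factors 3 were on the array, and 0 fell with median scaling or without the intensity trend. Binding of MiT factors to the promoters shown above was not measured, and a link between their levels and those of the members was not tested.

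**Figure D4:**
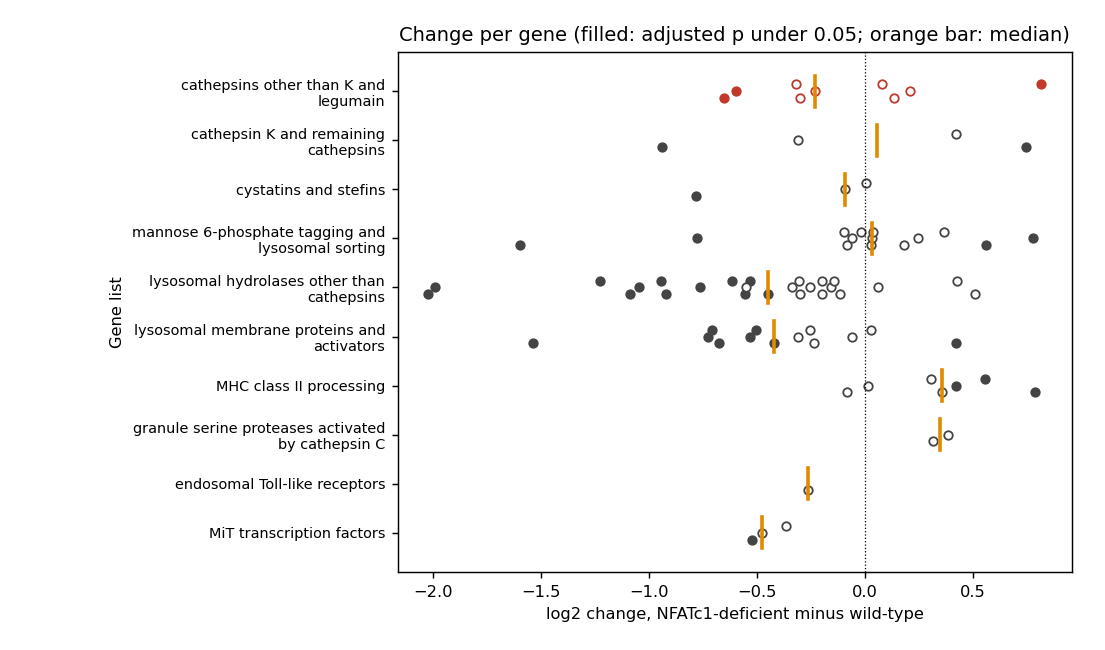
Log2 change (NFATc1-deficient minus wild-type) of each gene at its brightest tested probe set, for the cathepsins and legumain (red) and 9 gene lists (grey), with filled points for adjusted p under 0.05 and an orange bar at each median. The hydrolase and membrane protein lists have medians of -0.45 and -0.42, and the cathepsin and legumain genes of -0.23.

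How the calls held across settings is shown for the 9 genes together.

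**Figure D5:**
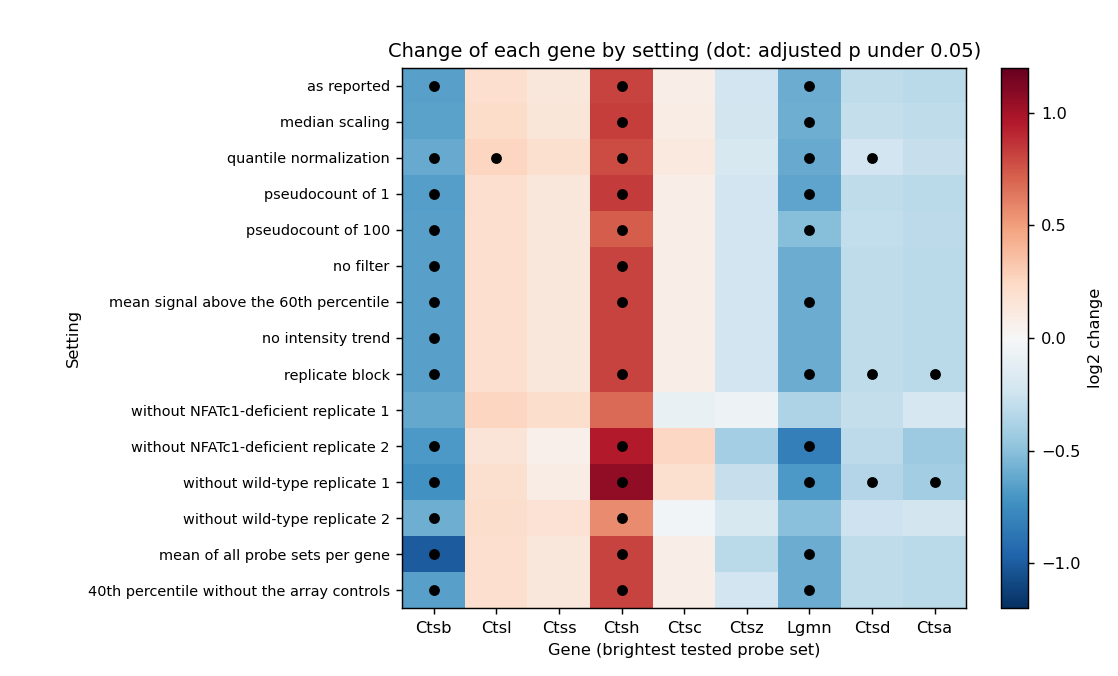
Log2 change of each gene (colour) under the reported setting and 14 alternatives, with a dot where the adjusted p was under 0.05. Ctsb lacks the dot in 2 alternatives, Ctsh in 2 and Lgmn in 4, and no gene has a dot without NFATc1-deficient replicate 1.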

How the data were processed

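RNA levels were measured on 4 Affymetrix arrays. The submitters' processing notes name MAS5 as the tool with which the authors computed the deposited intensity of each probe set, and the values are on a linear scale. Biotin-labelled cRNA followed the Affymetrix protocol, per the labels' protocols. No MAS5 version and no detection calls were used here, so whether a dim probe set lies above background is unknown, and the number of arrays limits the precision. The platform annotation gave 1 gene symbol for 20393 probe sets, several for 691 and none for 1606. Of those with 1 symbol, 20364 matched RefSeq of assembly GRCm38.p6 by Entrez number, with 0 symbols changed.

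Signals were analysed as log2(signal + 23.3), 23.3 being the 25th percentile of all values, which understates changes of dim genes. The 13577 probe sets whose mean exceeded the 40th percentile, without the 64 array controls, were fitted with limma 3.58.1 in R 4.3.3 (lmFit, eBayes with intensity trend, two-sided). The percentile was taken over all probe sets, controls included, a detail settled after results had been seen. Each gene was called at its brightest tested probe set. Counts at an unadjusted p have no share over all tested genes beside them, so they cannot be set against the adjusted shares. Every probe set of the members was reported, and of each pathway list up to 4 genes with the largest change among those that passed, or 2 where none passed. Nfatc1 and Ctsk were named by rule. Neu1, Cst3, Cstb, Lamp1, Cd74, Mitf, Tfeb, Ctsf and Ctsg were named as partners, inhibitors or substrates of the members or to complete a count. The members and lists were chosen with earlier results of these data known. The scripts were tested on simulated data. The p-values rest on only 2 pools of mice for each genotype and do not measure the spread between single mice. For each probe set limma drew the spread between pools toward that of probe sets with similar signal.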

Additional observations from a re-analysis of the deposited data

How the results depend on the processing

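Over 14 alternatives the 14 member probe sets, both Nfatc1 probe sets and Ctsk kept their direction and their side of the threshold in 201 of 232 values. The call was lost in 20 values and gained in 9, and the direction turned in 2, both for Ctsc, which did not pass either way and ran from -0.093 (without NFATc1-deficient replicate 1) through -0.034 (without wild-type replicate 2) to 0.25 (without NFATc1-deficient replicate 2). Against 2 lower member genes as reported, there was 1 with median scaling (Lgmn), 1 without a filter (Ctsb), 1 without the intensity trend (Ctsb) and 4 with replicate number as a block (Ctsa, Ctsb, Ctsd and Lgmn). Leaving out single arrays gave 0 to 4 lower and 0 to 1 higher member genes, with 4 lower without wild-type replicate 1. Against 1 higher gene there were 2 with quantile normalization (Ctsh and Ctsl) and 0 without the intensity trend, where limma had 1 at an unadjusted p under 0.05. Over all tested probe sets 1552 were lower and 1740 higher. The higher count was 1157 without a filter and 990 without the intensity trend, and leaving out single arrays gave 937 to 1541 lower and 840 to 1953 higher. Taking the 40th percentile without the array controls, an alternative chosen after seeing the data, left 13575 probe sets (1554 lower, 1742 higher) and changed no call of a member. With 1 array left in a genotype its spread was assumed to be that of the other genotype.

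The replicate numbers were left out of the reported fit, since the labels tie same-numbered arrays only by the number of pooled mice, although by Xist and Eif2s3y the sex of the pools also went with the number. Deviations of the same-numbered arrays from their genotype means correlated at 0.13 over the tested probe sets. With the block the adjusted p was 0.0278 for Ctsa, 0.0363 for Ctsd and 0.0288 for the dimmest Ctsz probe set. The median change of all tested probe sets was 0.036 as reported, 0.047 with median scaling and 0.032 with quantile normalization. Counts in the small lists moved as well, and the causes were not tested. Lower hydrolases numbered 7 to 14 (12 as reported) and lower lysosomal membrane genes 2 to 9 (7). Lower sorting genes numbered 1 to 2 (2) with 1 to 2 higher (2), lower cystatins 0 to 1 (1), lower MiT factors 0 to 2 (1) and higher class II genes 1 to 4 (3). Of the further cathepsins 0 to 1 were lower (1) and 0 to 2 higher (1), 0 to 1 higher among hydrolases (0) and among lysosomal membrane genes (1), 0 to 2 among serine proteases (0), and 0 to 1 endosomal receptor gene was lower (0).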
